A study of Mus musculus with 11 samples.

Results

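The Spata (spermatogenesis associated) and Tex (testis expressed) genes are named for where their transcripts were first found and not for a shared protein family. All genes of the count table whose symbol is Spata or Tex followed by a digit were taken, except Tex12, which gave 63 of 23074 genes, 28 Spata and 35 Tex. Spata22, Spata5l1, Tex13c2 and Tex50 were not analysed here. RNA-Seq read counts came from the decapsulated testis of 5 wild type and 6 Rfx2-/- mice at postnatal day 21, numbered 1 to 5 and 6 to 11, all on a mixed C57BL/6, 129/Sv and FVB/N background. The mutant allele lacks exon 7 of Rfx2, which encodes much of the DNA binding domain, and the exon was removed in the whole animal by a Cre transgene under the ACTB promoter. According to the study's methods the mixed background line keeps the neomycin cassette of the targeting vector. The comparison asks how transcripts of these genes differ in testes without the transcription factor RFX2.

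Male germ cells divide as spermatogonia, pass through meiosis as spermatocytes and then differentiate as haploid spermatids, which build the acrosome, condense the nucleus and grow a flagellum. In the young mouse the first wave of germ cells passes through these steps together, so the testis gains later cell types day by day. Many Spata and Tex genes are switched on in spermatocytes or spermatids, whereas others, such as Spata2, Spata5, Tex2, Tex10, Tex261 and Tex264, encode proteins used in many tissues. RFX2 belongs to a family of winged-helix factors that bind an inverted repeat called the X-box and control genes of cilia and flagella.

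Total counts lay between 26925157 and 29769483 in wild type and between 22232097 and 27116903 in Rfx2-/- testes, and values are given as CPM, the read counts scaled to a common library size with TMM factors. A count of 3, taken as the floor, corresponded to 0.0851 to 0.139 CPM and allows for counting error alone. Rfx2 itself was at 325.6 ± 118.1 CPM (SD, n = 5) in wild type and 303.6 ± 14.6 (SD, n = 6) in Rfx2-/- mice, with a log2 fold change of -0.10 (SE 0.21, edgeR adjusted p = 0.714). That total is taken over all exons, so it does not check for the loss of exon 7. Markers of 8 testis cell types were measured in every mouse, and none of the 8 marker scores passed an adjusted p of 0.05 (two-sided exact permutation tests, smallest adjusted p = 0.0693, for spermatocytes, and smallest p possible 0.00433). With so few mice only the most extreme splits can pass, so an equal cell makeup is not shown. The difference, Rfx2-/- minus wild type, was 0.50 for spermatocytes (unadjusted permutation p = 0.00866). It was -0.45 for macrophages and -0.30 for Sertoli cells (unadjusted permutation p = 0.026 and 0.039). Among the single markers of all 8 lists 1 was called, the Leydig cell enzyme gene Hsd3b1, lower at -0.86 (SE 0.12, edgeR adjusted p = 0.00126), and the Leydig cell genes Lhcgr and Hsd17b3 were at -1.12 (SE 0.21, adjusted p = 0.0102) and -0.94 (SE 0.23, adjusted p = 0.0287). The other Leydig cell markers lay between -0.57 (Cyp11a1, SE 0.41) and 0.09 (Cyp17a1, SE 0.79), with edgeR adjusted p of 0.297 to 0.937. The Leydig cell score differed by -0.52 (unadjusted permutation p = 0.139). The part of Leydig cells in the members' values was not tested. In whole testis, fewer cells of a type and less RNA per cell cannot be told apart.

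Among the 8 scores that of round spermatids spread most widely from mouse to mouse. The score of 16 round spermatid markers, their mean log2 CPM, was 4.96, 2.78, -0.04, 0.26 and -1.20 in wild type mice 1 to 5 and 0.72, 2.48 and 5.17 at the lowest, median and highest Rfx2-/- mouse. The summed level of these markers ran from 11.8 to 712.6 CPM in wild type and from 43.2 to 977.9 CPM in Rfx2-/- testes, and none of the 16 was at 0 in any mouse. Wild type mouse 1 and Rfx2-/- mouse 7 had the highest scores, and wild type mouse 5 and Rfx2-/- mouse 9 the lowest. The genotypes overlapped widely, with a difference of 1.21 (two-sided exact permutation test, p = 0.346, adjusted p = 0.396 over 8 scores).

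Levels of different genes were compared per kilobase of exon (CPM per kilobase). In wild type testes 32 of the 63 genes were above 10 and 10 were below 1, with a median of 11.7. Tex101, a GPI-anchored surface protein needed for the maturation of ADAM3 on sperm, had the highest level at 505.1 ± 64.5 (SD, n = 5). Spata4, a testis protein with a calponin-homology domain, followed at 452.6 ± 213.3, and the gap between these genes was smaller than the SD of Spata4. Spata24 came next at 123.2 ± 64.4, ahead of Tex30 at 95.5 ± 15.9, Spata16 at 85.2 ± 43.3, Tex22 at 76.4 ± 47.1 and Tex2 at 69.5 ± 28.5. Neighbours among these 5 genes differed by less than the larger SD of the pair. Spata5, Spata6 and Tex19.2 completed the genes with the 5 highest levels in each subgroup, at 56.0 ± 4.64, 53.6 ± 23.1 and 42.8 ± 3.12. At the other end, Tex13c3 was read in only wild type mouse 1 and Rfx2-/- mouse 7. Tex13c3, Tex37, Tex46, Tex52, Spata31d1b and Spata31d1c did not pass the filter on low counts and have no fold change here, so 57 members (26 Spata, 31 Tex) were tested.

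Within each genotype the members differed among mice far more than most genes did. Between the lowest and the highest wild type mouse, 27 of the 57 tested members (47.4%) spanned more than 8-fold, against 4.83% of all 15745 tested genes, and the median range on the log2 scale was 2.85 against 0.68. In Rfx2-/- mice 23 members (40.4%) spanned more than 8-fold, against 4.13% of all genes. All of the 27 wide-ranging members were highest in wild type mouse 1 and, among mutants, in Rfx2-/- mouse 7, the mice with the highest round spermatid scores, and 24 of them were lowest in wild type mouse 5. Of all tested genes 35.4% were highest in wild type mouse 1, 29.8% highest in Rfx2-/- mouse 7 and 29.0% lowest in wild type mouse 5. These shares were not taken for the other genes that span more than 8-fold.

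Spata21, for example, was read at 233.8, 68.9, 5.28, 9.39 and 1.54 CPM in wild type mice 1 to 5 and at 13.4, 73.2 and 331.2 CPM in the lowest, median and highest Rfx2-/- mouse. Spata3, a gene of haploid germ cells, was at 13.2, 0.91, 0.06, 0 and 0.03 CPM in the wild type mice and at 0.04, 1.11 and 22.9 CPM in the mutants. The testes that were high for these genes were high in both genotypes, and the genotypes overlapped. Spata21 was chosen as an example after its values were seen.

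A second set of 13 members varied by less than 2-fold among wild type mice. It held Tex101, Tex10, Tex14, Tex19.1, Tex19.2, Tex261, Tex264, Tex30, Tex9, Tex13b, Spata2, Spata5 and Spata13, that is, 10 Tex genes and 3 Spata genes. Tex264, a receptor of autophagy of the endoplasmic reticulum, was at 61.3, 63.0, 51.8, 61.7 and 55.9 CPM in wild type mice 1 to 5 and at 53.6, 57.3 and 62.0 CPM in the lowest, median and highest mutant. The remaining 17 members ranged between 2- and 8-fold. Of these, Tex11, Tex15 and Tex16 ran in the opposite order to the spermatid genes: Tex15, a protein of meiotic recombination and of transposon silencing, was at 183.0, 195.6, 442.9, 281.5 and 414.6 CPM in wild type mice 1 to 5. Wild type mice 3 and 5, with the lowest spermatid scores, were thus the highest for Tex15. The standard error of the genotype comparison followed this spread, with a median of 1.13 on the log2 scale for the 27 wide-ranging members and 0.08 for the 13 narrow ones.

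**Figure D1:**
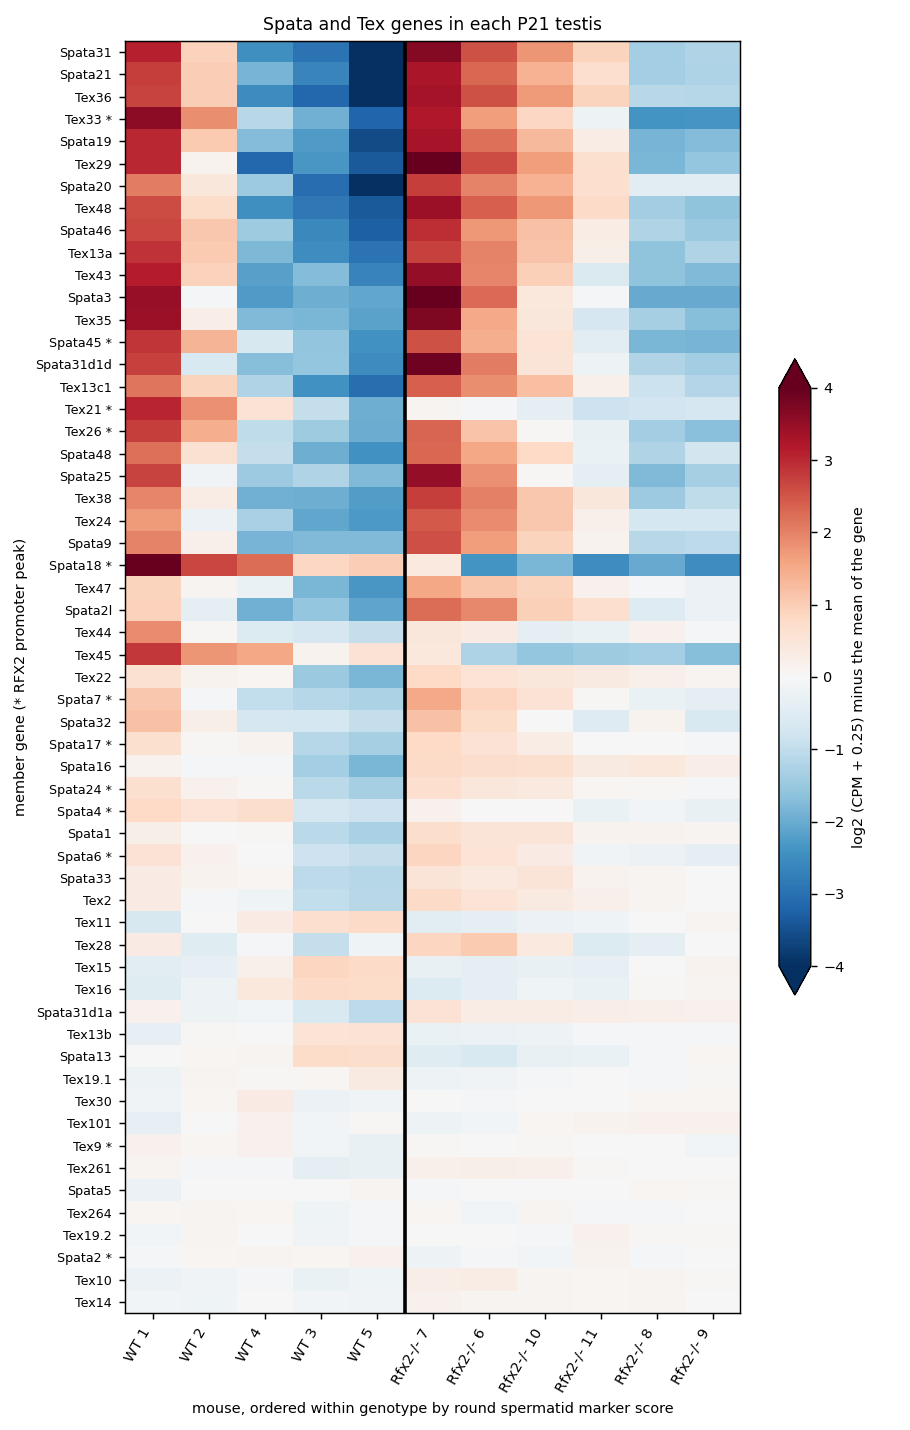
Heat map of the 57 tested members (rows, * marks an RFX2 promoter peak) in the 11 mice (columns, ordered within each genotype by the round spermatid marker score, black line between genotypes). Colour gives log2 (CPM + 0.25) minus the mean of the gene over all mice; the upper rows shade from red at wild type mouse 1 and Rfx2-/- mouse 7 to blue at the right of each genotype, Spata18 and Tex45 are red to pale in wild type and mostly blue in Rfx2-/- mice, and the bottom rows are nearly even.

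Of the 57 tested members, 0 were called lower and 1 was called higher in Rfx2-/- testis (edgeR quasi-likelihood test, Benjamini-Hochberg adjusted p of at most 0.01 over all genes), against 1.94% of all genes called lower and 0.730% called higher. Past 2-fold, 0 were called in either direction, against 1.04% of all genes lower and 0.216% higher. At an unadjusted p under 0.05, 6 members were lower and 8 higher, against 23.7% and 18.1% of all genes. At an adjusted p of at most 0.05, Spata18, Tex45 and Spata13 were lower and Tex10 and Tex14 higher, against 8.78% and 6.15% of all genes. DESeq2 called 3 lower and 3 higher, against 5.79% and 7.28% of all genes, and limma voom called 2 lower and 3 higher, against 4.33% and 2.33%. Each of these alternatives counted 2 members, Spata18 and Tex45, as lower by more than 2-fold, against 1.68% of all genes at an adjusted p of at most 0.05, 1.46% by DESeq2 and 1.50% by limma voom. A single member is 1.75% of the 57, which is the step in which the members' shares move.

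Other settings gave counts as small. With total counts as library sizes 1 member was lower, by more than 2-fold, and 0 higher, against 2.74%, 1.44% and 0.616% of all genes. With DESeq2 size factors in edgeR 0 were lower and 1 higher, against 1.75% and 0.883%, and with no filter beyond 1 count 0 and 0, against 1.29% and 0.458%. At an unadjusted p of at most 0.01, 3 were lower, 2 of them by more than 2-fold, and 3 higher, against 10.2%, 1.74% and 7.49%. Without Rfx2-/- mouse 7, 2 were lower, both by more than 2-fold, and 0 higher, against 1.39%, 0.947% and 0.307%. By fitted value, 17 members were below 0 and 40 above. The median log2 fold change of the members was 0.41, of Spata genes 0.52 and of Tex genes 0.21, against -0.05 over all genes. The members' median was 0.04 without Rfx2-/- mouse 7 and 0.96 without wild type mouse 1, the mice with the highest spermatid scores, so its size rested on these libraries.

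**Figure D2:**
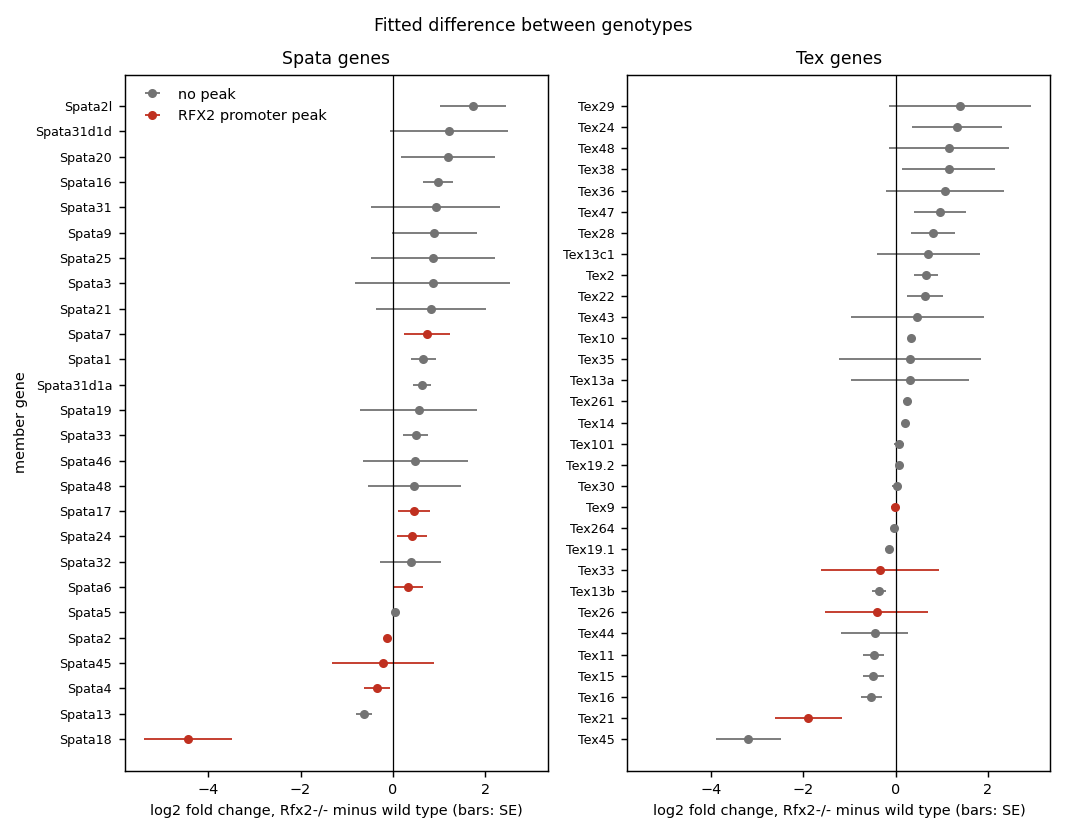
Fitted log2 fold change (horizontal axis, Rfx2-/- minus wild type, edgeR, bars are SE) of the 26 Spata genes (left) and 31 Tex genes (right) tested, with RFX2 promoter peak genes in red. Spata18, Tex45 and Tex21 lie farthest below 0, the other genes lie between -1 and 2, and many bars cross 0.

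The largest fitted difference was that of Spata18, which encodes a protein of mitochondrial quality control also called Mieap and lies at chr5:73651379-73679512 on the plus strand (GRCm38). It was at 35.6, 13.4, 3.49, 9.74 and 3.96 CPM in wild type mice 1 to 5 and at 0.13, 0.22 and 2.56 CPM in the lowest, median and highest Rfx2-/- mouse. Every mutant was below every wild type mouse, and 5 of the 6 mutants held between 3 and 8 reads, at or near the floor, while mouse 7 held 62. The log2 fold change was -4.44 (SE 0.95, a 21.7-fold difference), but the adjusted p was 0.0174 (edgeR), just outside the threshold. Without Rfx2-/- mouse 7 it was -5.95 with an adjusted p of 0.00187, a call, and the adjusted p over all alternatives lay between 2.26e-05 (with the round spermatid score as a covariate) and 0.0477. All 11 fits that left out a mouse kept the value below 0. A lack of overlap with every mutant lower was seen for 1 of the 57 members, and for 5.20% of all genes.

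Tex45, at chr8:3470862-3487181, followed. It was at 8.66, 3.97, 1.14, 3.43 and 1.60 CPM in wild type mice 1 to 5 and at 0.13, 0.22 and 1.403 CPM in the lowest, median and highest mutant. Only Rfx2-/- mouse 7, with 34 reads against 3 to 7 in the other mutants, reached the wild type range. The log2 fold change was -3.18 (SE 0.71, edgeR adjusted p = 0.0203), and without mouse 7 it was -4.15 with an adjusted p of 0.0032, again a call. Over all alternatives the adjusted p lay between 6.91e-05 and 0.0538.

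Tex21, at chr12:76198686-76246746 on the minus strand, had a different shape. It was at 100.6, 43.5, 6.16, 18.1 and 2.95 CPM in wild type mice 1 to 5 and at 6.66, 8.47 and 13.0 CPM in the lowest, median and highest mutant. The mutants lay close together within a wide wild type range, and the genotypes overlapped because wild type mice 3 and 5 were lower than all mutants. The log2 fold change was -1.89 (SE 0.73, edgeR adjusted p = 0.0816), and without wild type mouse 1 it was -0.94 (adjusted p = 0.21).

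Spata13, a guanine nucleotide exchange factor, was at 20.5, 22.0, 35.0, 22.2 and 34.0 CPM in wild type mice 1 to 5 and at 13.6, 17.0 and 21.9 CPM in the lowest, median and highest mutant. Its log2 fold change was -0.62 (SE 0.18, edgeR adjusted p = 0.0426). The overlap came from wild type mouse 1 alone, which was below 1 mutant, mouse 9. Tex16, which is X-linked, completed the 5 lowest fitted values at -0.52 (SE 0.23, edgeR adjusted p = 0.112).

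Tex10 was the 1 member that passed the test. It lies at chr4:48430858-48473459 on the minus strand and encodes a subunit of the complex with PELP1, WDR18 and SENP3 that acts in ribosome maturation. It was at 118.5, 127.1, 116.4, 133.1 and 124.7 CPM in wild type mice 1 to 5 and at 145.1, 151.7 and 171.8 CPM in the lowest, median and highest mutant, with all mutants above all wild type mice. The rise was 1.26-fold, with a log2 fold change of 0.33 (SE 0.06, edgeR adjusted p = 0.00824). The call was held in 1 of the 11 fits that left out a mouse, without wild type mouse 4, and the adjusted p of these fits lay between 0.00838 and 0.0224. With total counts as library sizes, which moved the median of all genes from -0.05 to -0.22, the value was 0.17 (adjusted p = 0.0763). In the annotation 226 bases of Tex10 exons overlap Invs on the other strand.

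The same order of genotypes was seen for Tex14, a protein of the intercellular bridges that join germ cells. It was at 140.4, 133.5, 139.9, 149.4 and 138.9 CPM in wild type mice 1 to 5 and at 154.4, 162.4 and 170.2 CPM in the lowest, median and highest mutant, again without overlap. The difference was 1.15-fold, with a log2 fold change of 0.21 (SE 0.05, edgeR adjusted p = 0.0202) that shrank to 0.04 (adjusted p = 0.634) with total counts as library sizes.

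The third member without overlap was Spata16, a protein of the forming acrosome. It was at 269.6, 228.5, 95.1, 237.7 and 68.3 CPM in wild type mice 1 to 5 and at 291.6, 352.2 and 410.8 CPM in the lowest, median and highest mutant, with a log2 fold change of 0.97 (SE 0.33, edgeR adjusted p = 0.0605). A lack of overlap with every mutant higher was thus seen for 3 of the 57 members, against 6.50% of all genes.

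**Figure D3:**
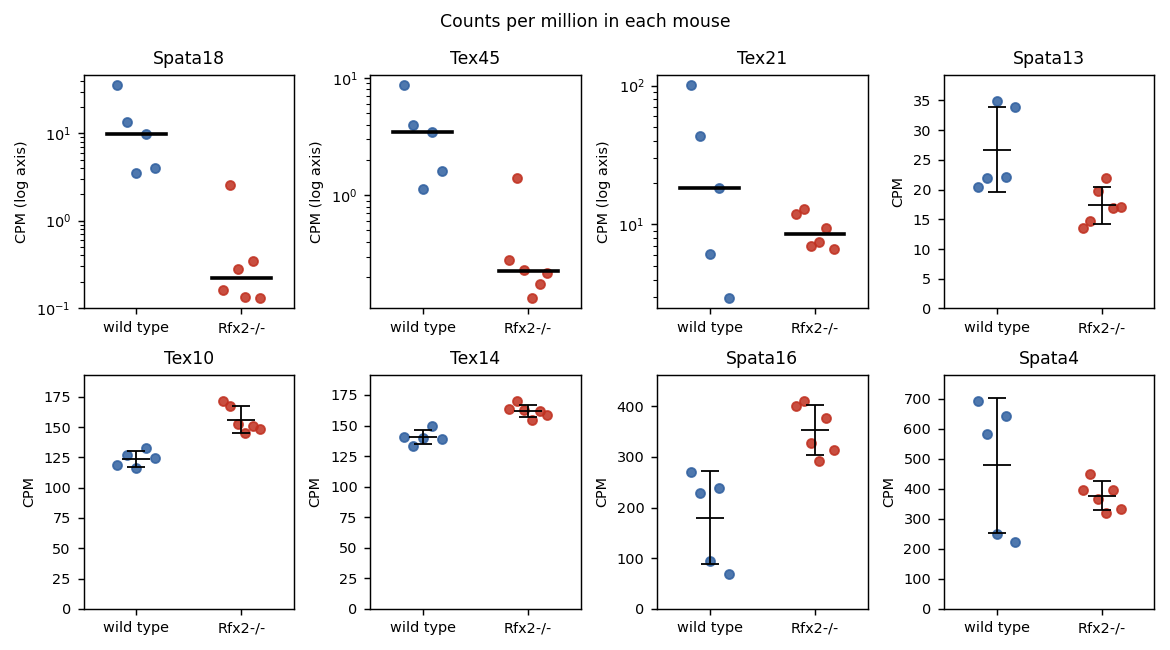
CPM in each mouse (points, 5 wild type in blue, 6 Rfx2-/- in red) for 8 members. Black bars are medians on the log axes of Spata18, Tex45 and Tex21 and mean ± SD on the linear axes of the others; Spata18 separates by genotype with Rfx2-/- mouse 7 the nearest to wild type, Tex21 is narrow in Rfx2-/- mice, and Tex10, Tex14 and Spata16 are higher in every Rfx2-/- mouse.

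Among the 5 tested genes of meiosis and the spermatocyte (Tex11, Tex14, Tex15, Tex19.1, Tex19.2), 0 were called, and their median was -0.14 on the log2 scale. Tex14 alone was higher at an unadjusted p under 0.05, against 18.1% of all genes. DESeq2 and limma voom each called that gene higher, against 7.28% and 2.33% of all genes, and 3 of the 5 fitted values were below 0. Tex11, an X-linked factor of meiotic synapsis, was at 80.6 ± 28.4 CPM (SD, n = 5) in wild type and 57.9 ± 8.82 (SD, n = 6) in mutants, with a log2 fold change of -0.48 (SE 0.22). Tex15 had the same value, -0.48 (SE 0.23). Tex19.1, which restrains transposons in germ cells, was at -0.14 (SE 0.09), and its paralogue Tex19.2 at 0.08 (SE 0.06). These last values have nominal 95% intervals of -0.32 to 0.03 and -0.04 to 0.19. Reads that mapped to more than 1 place were discarded by the authors, so the levels of such paralogues are uncertain.

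For the 4 genes listed under the sperm surface and head, 0 were called and the median was 0.67. The role given for Spata3 in this list, a protein of haploid germ cells, does not itself place it there. Tex101, the most abundant member, was at 679.5, 859.3, 794.7, 963.1 and 888.3 CPM in wild type mice 1 to 5 and at 752.3, 920.8 and 970.7 CPM in the lowest, median and highest mutant. Its log2 fold change was 0.08 with a nominal 95% interval of -0.13 to 0.29, so a 2-fold difference lay outside the interval. Spata46, of the spermatid nuclear envelope, and Spata3 were at 0.48 (SE 1.13) and 0.86 (SE 1.68), where differences of several-fold in either direction lay inside the intervals. Of the 4, 1 (Spata16) was higher at an unadjusted p under 0.05, against 18.1% of all genes. Neither DESeq2 nor limma voom called any of the 4, against 5.79% and 4.33% of all genes lower and 7.28% and 2.33% higher.

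Among the 8 genes of the flagellum, connecting piece and mitochondria, 0 were called, 6 fitted values were above 0, and the median was 0.46. Spata18 was 1 of the 2 below 0, the 1 gene past an unadjusted p under 0.05 (against 23.7% of all genes lower and 18.1% higher), and was called lower by DESeq2 and limma voom (against 5.79% and 4.33%). Spata4 was the other, at 693.8, 583.6, 249.1, 643.8 and 221.7 CPM in wild type mice 1 to 5 and at 320.6, 380.2 and 450.9 CPM in the lowest, median and highest mutant. Wild type mice 1, 2 and 4 were above all mutants and mice 3 and 5 below all of them, giving a log2 fold change of -0.34 (SE 0.29, edgeR adjusted p = 0.369). Spata6, a protein of the sperm connecting piece, was at 0.33 (SE 0.31), and Spata17, a calmodulin-binding protein of motile cilia and flagella, at 0.45 (SE 0.34). Spata33, which anchors calcineurin at sperm mitochondria, was at 0.49 (SE 0.27), and Spata7, of the photoreceptor connecting cilium, at 0.73 (SE 0.50). Spata19, a protein of sperm mitochondria, was at 0.55 (SE 1.26), and Tex43, of the sperm axoneme, at 0.47 (SE 1.45).

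Of 5 genes of the Spata31 family, 3 were tested, and 0 were called by edgeR, with 1 higher at an unadjusted p under 0.05, against 18.1% of all genes. Their fitted values were all above 0, at a median of 0.92. Spata31d1a was at 19.6, 14.9, 11.1, 15.9 and 8.11 CPM in wild type mice 1 to 5 and at 19.3, 21.0 and 25.5 CPM in the lowest, median and highest mutant, and only wild type mouse 1 reached the range of the mutants. Its log2 fold change was 0.62 (SE 0.19, edgeR adjusted p = 0.0525), and DESeq2 and limma voom called it, with adjusted p of 0.00958 and 0.00993. They called 7.28% and 2.33% of all genes higher. Spata31d1a was singled out after its values were seen. The Spata31d1 genes are near copies of each other, so their counts are uncertain in the same way as those of the Tex19 pair.

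Among the 10 genes listed as widely expressed, 1 was called higher (Tex10) and 0 lower by edgeR, against 0.730% and 1.94% of all genes, with a median of 0.14. For Spata20 and Tex30 in this list no role is given. Spata20 and Spata2l were also wide-ranging members, at 3.68 to 256.8 CPM and 1.29 to 12.4 CPM in wild type mice. Both were highest in wild type mouse 1 and Rfx2-/- mouse 7. Of the 10, 1 was lower and 4 were higher at an unadjusted p under 0.05, against 23.7% and 18.1% of all genes. DESeq2 called 1 lower (Spata13) and 1 higher, against 5.79% and 7.28% of all genes, and limma voom called 0 lower and 1 higher, against 4.33% and 2.33%. Spata2, an adaptor between the deubiquitinase CYLD and the linear ubiquitin ligase, was at 47.1 ± 2.70 CPM (SD, n = 5) and 42.9 ± 3.78 (SD, n = 6), a log2 fold change of -0.13 (SE 0.07). Its paralogue Spata2l was at 12.4, 4.94, 2.04, 1.51 and 1.29 CPM in wild type mice 1 to 5 and at 4.34, 11.4 and 30.9 CPM in the lowest, median and highest mutant, with a log2 fold change of 1.73 (SE 0.72, edgeR adjusted p = 0.096), the highest fitted value of any member. Spata5, an ATPase of ribosome maturation, was at 0.03 (SE 0.06), Tex264 at -0.02 (SE 0.07) and Tex30 at 0.02 (SE 0.10). Tex2, a lipid-binding protein of the endoplasmic reticulum, was at 0.65 (SE 0.26), and Tex261, which acts in export from it, at 0.25 (SE 0.09).

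For the other 27 tested members no role is given here, and 0 were called by edgeR. At an unadjusted p under 0.05, 4 (14.8%) were lower and 1 (3.70%) higher, against 23.7% and 18.1% of all genes, and DESeq2 and limma voom each called 1 lower (Tex45), against 5.79% and 4.33%. Apart from Spata2l, the highest fitted values of any member were those of Tex29 at 1.39 (SE 1.54), Tex24 at 1.32 (SE 0.97), Spata31d1d at 1.22 (SE 1.27) and Spata20 at 1.19 (SE 1.01), each with an interval that held 0. Tex22 was at 0.65 (SE 0.39) and Spata24 at 0.41 (SE 0.32). In all, 19 of the 57 members had a 95% interval that stayed within 2-fold in both directions, and the intervals of the other 38 reached 2-fold in at least 1 direction. Of 7 X-linked members, 6 were tested, 3 with values above 0 and 3 below, and edgeR, DESeq2 and limma voom called 0 of them. At an unadjusted p under 0.05, 2 of the 6 were lower, against 23.7% of all genes. Tex11, Tex13b and Tex16 were highest in the wild type mice with the lowest spermatid scores, and Tex13a, Tex13c1 and Tex28 in wild type mouse 1.

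The study lists genes with an RFX2 ChIP-Seq peak at the promoter in germ cells of wild type mice at the same age, a measure made without these RNA counts. It marks 12 of the 63 members, 8 Spata (Spata2, Spata4, Spata6, Spata7, Spata17, Spata18, Spata24, Spata45) and 4 Tex (Tex9, Tex21, Tex26, Tex33). All 12 were tested and 0 were called by edgeR, with 8 fitted values below 0 and 4 above and a median of -0.18. At an unadjusted p under 0.05, 2 of the 12 (16.7%) were lower (Spata18, Tex21) and 0 higher, against 24.2% and 22.4% of all tested genes with a peak. DESeq2 and limma voom each called 1 of the 12 lower (Spata18), and 115 and 142 of the 948 tested genes with a peak. Of the 45 tested members without a peak, 9 were below 0 and 36 above, with a median of 0.49. Among all 948 tested genes with a peak, 7.07% were called lower and 3.06% higher, with a median of 0.01. The level of both medians rested on single mice, since without wild type mouse 1 the peak members' median was 0.62 and that of the others 1.17. The peak members' median was the lower with and without this mouse. Tex9 was at 59.6 ± 7.82 CPM (SD, n = 5) and 59.0 ± 2.53 (SD, n = 6), with 2842 of its exon bases overlapping Mns1 on the other strand, so its count is uncertain.

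The best match to an X-box consensus of 14 letters, GTTGCC, then AT, then the reverse complement of GTTGCC, on either strand, was looked for in the RefSeq promoters (GRCm38.p6, 250 bases before to 50 after the start) of 55 members. The median best match had 10 of 14 letters in 11 members with a peak, 9 in 44 members without and 8 over all 32851 promoters. At least 10 letters matched in 7 of the 11 and in 10 of the 44, against 12.2% of all promoters. The following windows show these 7 members with a peak and Spata33, which has no peak in the list but 12 matching letters; the capitals mark the best match, written on the strand of the gene. 
Tex33 (chr15:78395928-78395971, minus strand, 13 letters, from position -44): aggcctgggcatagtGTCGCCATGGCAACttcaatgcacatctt
Spata4 (chr8:54600760-54600803, plus strand, 12 letters, from -6): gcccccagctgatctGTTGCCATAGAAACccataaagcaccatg
Spata6 (chr4:111719989-111720032, plus strand, 12 letters, from -6): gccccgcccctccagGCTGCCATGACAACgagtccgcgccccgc
Tex9 (chr9:72491962-72492005, minus strand, 11 letters, from -31): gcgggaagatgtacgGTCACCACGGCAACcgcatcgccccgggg
Tex21 (chr12:76246752-76246795, minus strand, 10 letters, from -34): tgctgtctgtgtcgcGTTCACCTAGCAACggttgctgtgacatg
Tex26 (chr5:149439612-149439655, plus strand, 10 letters, from -33): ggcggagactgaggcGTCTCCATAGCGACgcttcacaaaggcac
Spata45 (chr1:191036785-191036828, plus strand, 10 letters, from -19): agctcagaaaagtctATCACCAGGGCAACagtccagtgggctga
Spata33 (chr8:123212847-123212890, plus strand, 12 letters, from 4): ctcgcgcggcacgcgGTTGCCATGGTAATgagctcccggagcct
In the 7 peak members the match began within the 44 bases before the start. The best matches of Spata18, Spata7, Spata17 and Spata2, which also have a peak, reached 9, 9, 8 and 8 letters, and 48.0% of all promoters hold at least 9. The whole promoter of Spata18, the member with the largest fitted difference, is given with its best match of 9 letters in capitals, from position -79.
Spata18 (chr5:73651130-73651429, plus strand): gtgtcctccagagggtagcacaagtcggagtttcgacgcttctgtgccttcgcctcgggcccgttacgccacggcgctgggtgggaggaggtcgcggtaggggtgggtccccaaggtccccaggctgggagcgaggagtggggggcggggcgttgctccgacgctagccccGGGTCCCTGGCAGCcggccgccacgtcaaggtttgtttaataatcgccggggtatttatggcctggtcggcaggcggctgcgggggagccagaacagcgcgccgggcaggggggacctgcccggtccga
These letters are a description of the promoters, and fewer matching letters in a window say nothing of whether RFX2 binds there.

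Because the members followed the spermatid score so widely, the comparison was also fitted with that score as a covariate. It is computed from the same libraries, and none of its 16 markers is a Spata or Tex gene. The loss of RFX2 may itself shift the score, so the values below hold only given this score. Its markers did not move as 1, with fitted log2 fold changes from -0.94 (Prm2, SE 1.58) to 1.45 (Catsper4, SE 1.28). The fit takes 1 slope on the score for both genotypes, and whether the slopes differ was not tested. In this fit 5 members were called lower, all by more than 2-fold, against 4.67% of all genes, and 2.06% past 2-fold. It called 3 members higher, 1 by more than 2-fold, against 2.71% and 0.534%. Those called lower were Spata18 at -5.13 (SE 0.46), Tex45 at -3.73 (SE 0.39), Tex21 at -1.77 (SE 0.38), Tex33 at -1.06 (SE 0.21) and Tex26 at -1.02 (SE 0.20). The edgeR adjusted p-values were 2.26e-05, 6.91e-05, 0.00905, 0.00578 and 0.00577 in that order. Tex21 ran from 2.95 to 100.6 CPM in wild type but only from 6.66 to 13.0 CPM in mutants, so a single offset describes it poorly. Those called higher were Spata2l at 1.26 (SE 0.16), Tex24 at 0.99 (SE 0.19) and Tex10 at 0.31 (SE 0.06), with edgeR adjusted p-values of 0.000317, 0.00527 and 0.00665.

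Of the 12 members with a peak, this fit called 4 lower (Spata18, Tex21, Tex26, Tex33) and 0 higher. Among all 948 tested genes with a peak it called 13.5% lower and 7.70% higher. The other member called lower, Tex45, and the 3 called higher have no peak. Tex33 was at 104.4, 31.5, 2.07, 3.78 and 0.72 CPM in wild type mice 1 to 5 and at 1.43, 11.5 and 81.6 CPM in the lowest, median and highest mutant, and in the fit without the score its value was -0.33 (SE 1.28). Tex26 was at 9.93, 3.80, 0.31, 0.49 and 0.13 CPM in wild type mice 1 to 5 and at 0.22, 1.13 and 7.30 CPM in the mutants, with -0.41 (SE 1.12) without the score. Spata45, also with a peak, was at -0.93 (SE 0.21, edgeR adjusted p = 0.0119) with the score and -0.22 (SE 1.10) without it. The members' median was 0.16 with the score.

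**Figure D4:**
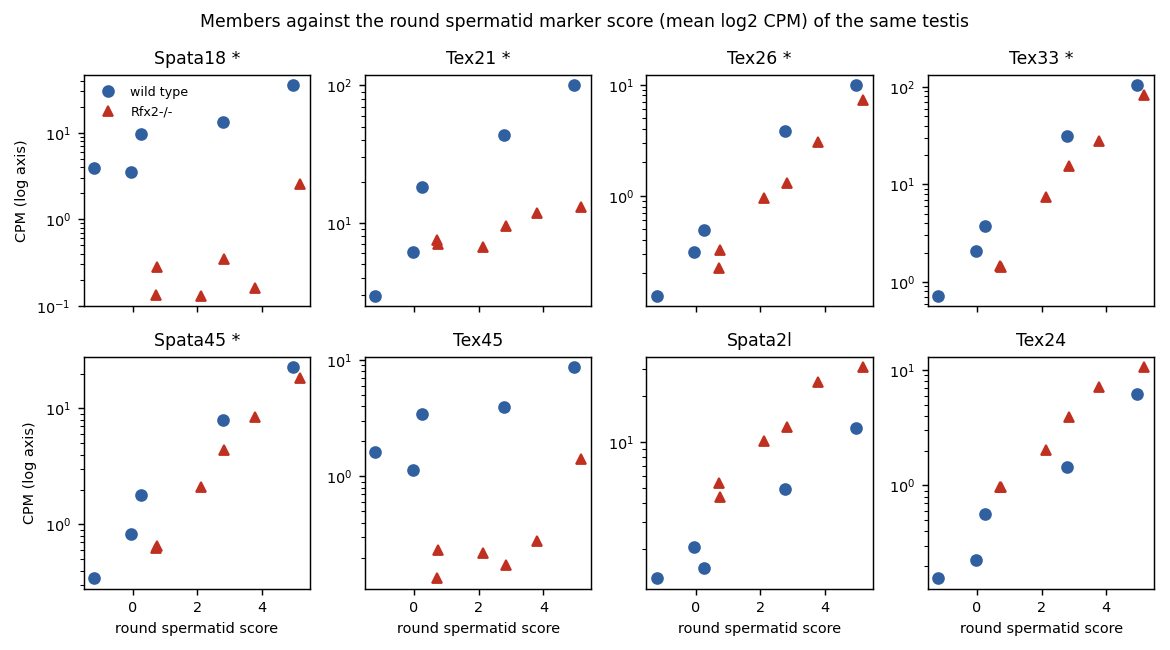
CPM on a log axis against the round spermatid marker score (mean log2 CPM of 16 markers) of the same testis, for 8 members in 5 wild type (circles) and 6 Rfx2-/- mice (triangles), with * for an RFX2 promoter peak. Levels mostly climb with the score in wild type; at like scores the Rfx2-/- mice lie far below wild type for Spata18 and Tex45, below it for Tex26, Tex33 and Spata45, in a narrow range for Tex21, and above it for Spata2l and Tex24.

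Known partners of these proteins were read from a list of 30 genes, of which 3 (Meiob, Rpa1, Rpa2) are partners of Spata22 and were set aside after the data were seen, since Spata22 was not analysed here. Of the 27 partners of members, all tested, 0 were called lower or higher by edgeR, against 1.94% and 0.730% of all genes, with 14 values below 0 and 13 above and a median of -0.05. At an unadjusted p under 0.05, 6 were lower and 7 higher, against 23.7% and 18.1% of all genes. DESeq2 called 0 lower and 2 higher, against 5.79% and 7.28%, and limma voom 0 and 0, against 4.33% and 2.33%. Of the partners of Tex10, Pelp1 was at 0.45 (SE 0.13, edgeR adjusted p = 0.0398), Wdr18 at 0.25 (SE 0.08, adjusted p = 0.0583), Senp3 at 0.02 (SE 0.07) and Las1l at -0.40 (SE 0.14), with values on both sides of 0. The bridge proteins around Tex14 also lay on both sides of 0, with Cep55 at 0.17 (SE 0.08), Racgap1 at 0.12 (SE 0.05) and Kif23 at -0.22 (SE 0.06, edgeR adjusted p = 0.0398). Bnip3 and Bnip3l, mitochondrial proteins that interact with the product of Spata18, were at -0.15 (SE 0.09) and -0.23 (SE 0.09).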

How the data were processed

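Testis RNA of 5 wild type and 6 Rfx2-/- mice was studied. The authors deposited raw read counts per gene and mouse. Per the labels and methods, reads were processed with CASAVA 1.8.2, mapped to GRCm38 with STAR 2.4 and counted over exons with featureCounts 1.4.6, and reads mapping to several places or to exons of several genes were left out. Other columns of values, 0 in number, were not used. Symbols and exon lengths came from GENCODE annotation of GRCm38.

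Counts were filtered with filterByExpr, scaled by TMM and compared in R 4.3.3 with edgeR 4.0.16 (glmQLFit, glmQLFTest) over 15745 genes without covariates, at an adjusted p of at most 0.01. Standard errors were derived from the fold change and its F statistic, and nominal 95% intervals are 1.96 standard errors wide on each side. With so few mice these intervals are narrower than the quasi-likelihood test allows. Alternatives used DESeq2 1.42.0, limma 3.58.1 voom, other scalings, thresholds and filters, a round spermatid score (mean log2 CPM with a prior count of 2) as a covariate, and each mouse left out. In simulated counts of 15574 genes edgeR called 166 of 200 changed genes and 3 others, DESeq2 184 and 24 others, and limma voom 169 and 4 others. The changes were all past 2-fold and left out the genes of lowest level. Genes were drawn independently, without a spread between mice that many genes share. These shares therefore do not give the power for the wide-ranging members. Marker scores were compared by two-sided exact permutation tests in SciPy 1.17.1. Members passing the test, the 5 lowest and 5 highest other values, the 5 highest levels per subgroup, genes with a peak and genes with a known role were named. Members and lists were chosen with earlier results of these data known. Each mouse is a biological replicate.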

Additional observations from a re-analysis of the deposited data

Results flagged for a closer look

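In the 130 sets searched (57 members and 8 marker scores in each genotype), 4 held a mouse set apart from the others by a gap wider than the limit for its group size on the log2 CPM scale. Chance alone flags about 1 in 20 sets. Rfx2-/- mouse 7 was the mouse in 3 of the 4. It stood above the other mutants for Spata18 at 2.56 CPM against 0.131 to 0.348, for Tex45 at 1.4 CPM against 0.133 to 0.279, and for Spata31d1a at 25.5 CPM against 19.3 to 21.3. It also had the highest round spermatid score of the mutants, and the part of that score in these gaps was not tested. Rfx2-/- mouse 9 stood below the other mutants for Tex9 at 54.3 CPM against 58.7 to 61.3.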

How the results depend on the processing

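No paired analysis was possible because the wild type mice carry the numbers 1 to 5 and the Rfx2-/- mice 6 to 11, which share no number.

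Beside 0 members lower and 1 higher, an unadjusted p of at most 0.01 gave 3 and 3, an adjusted p of at most 0.05 gave 3 and 2, DESeq2 3 and 3, limma voom 2 and 3, the spermatid score as a covariate 5 and 3, total counts 1 and 0, and no filter beyond 1 count 0 and 0. Past 2-fold, against 0 lower and 0 higher, the first 4 of these settings gave 2 lower, the covariate 5 lower and 1 higher, and total counts 1 lower. Over all genes, against 305 lower and 115 higher, the unadjusted p gave 1604 and 1180, the adjusted p of at most 0.05 gave 1382 and 968, DESeq2 911 and 1146, limma voom 682 and 367, and the covariate 736 and 427. Of all 30 listed partner genes, 3 of them partners of Spata22, against 0 and 0, the unadjusted p gave 3 and 3, the adjusted p of at most 0.05 gave 3 and 2, DESeq2 0 and 3, limma voom 0 and 1, and the covariate 0 and 2. Without those 3 the same settings gave 3 and 2, 3 and 1, 0 and 2, 0 and 0, and 0 and 1. Leaving out each mouse gave 0 to 2 members lower, 0 to 2 past 2-fold, 0 to 1 higher, and 184 to 393 lower and 45 to 192 higher genes in all. Fewer mice enter these fits, and the cause of the other shifts was not tested.

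Of the log2 fold changes of named members, 276 of the values under other settings and 399 with a mouse left out kept their direction and side of the threshold. Signs turned with total counts for Spata5 (-0.14), Tex101 (-0.084), Tex19.2 (-0.087), Tex30 (-0.13) and the peritubular myoid score (-0.11), a scaling that lowers all genes together. They turned with limma voom for Tex19.2 (-0.0033) and Tex30 (-0.10), with DESeq2 size factors for Tex264 (0.0017) and Tex9 (0.014), with DESeq2 for Tex264 (0.0022) and Tex9 (0.014), and with the covariate for Tex43 (-0.053). With a mouse left out, values crossed 0 for Spata3 (-0.85 to 4.36), Spata19 (-0.27 to 2.31), Spata31d1d (-0.18 to 3.56), Spata45 (-1.05 to 1.09), Spata46 (-0.27 to 1.93), Spata5 (-0.014 to 0.081), Tex9 (-0.067 to 0.029), Tex26 (-1.31 to 0.90), Tex30 (-0.018 to 0.12), Tex33 (-1.40 to 1.25), Tex43 (-0.73 to 2.59), Tex264 (-0.056 to 0.0018) and the peritubular myoid score (-0.061 to 0.10). Without wild type mouse 4 the scores of spermatocytes (0.34 to 0.60 over all mice left out), macrophages (-0.56 to -0.37) and endothelium (-0.45 to -0.23) passed an adjusted p of 0.05. Depth limits Spata18 and Tex45, which held under 10 reads in 5 of the 6 mutants.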
